A study of Mus musculus with 19 samples.

Results

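Penk encodes proenkephalin, the precursor protein that proteases cut into the enkephalins, short opioid peptides. The gene was chosen by name, with earlier results of these libraries in view, so its own levels and fold changes are given below as a description with no test. It is 1 of 22878 gene symbols in the RNA tables, where it has 1 of the 29257 transcripts (NM_001002927, 1412 bases). Of the transcription factor peaks, 0 of 17459 Bcl11b peaks and 1 of 28612 GATA3 peaks were assigned to it.

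RNA was sequenced from mouse T helper 2 (Th2) cells, CD4 T cells grown under conditions that favour type 2 cytokines. There were 8 groups of 2 libraries each. In the Bcl11b experiment, naive CD4 T cells came from Bcl11bfl/fl-CreERT2 mice, in which 4-OHT switches on the Cre recombinase that deletes the floxed Bcl11b alleles. Late KO cells had 4 days of Th2 culture, 1 day of rest in IL-2 and 4 more days of Th2 culture with 4-OHT. Late WT cells went through the same culture without 4-OHT. Early KO cells had 4 days of Th2 culture with 4-OHT, and early WT cells the same 4 days without it. All 4 groups carried the same floxed alleles and CreERT2, so the deletion and the exposure to 4-OHT cannot be told apart. The Gata3 experiment had late KO, late WT, early KO and early WT cells; the labels give no strain, Cre driver, deletion agent or culture days for it. Nothing in the labels says that the 2 libraries of a group came from separate mice or cultures, so the errors below cover the spread between libraries, which may be technical. Bcl11b and GATA3 binding was mapped by ChIP-seq in WT Th2 cells with 1 library each, beside 1 input library.

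In the nervous system and the adrenal medulla, convertases cut proenkephalin at pairs of basic residues and carboxypeptidases trim the products to Met- and Leu-enkephalin, which act mainly on delta and mu opioid receptors before aminopeptidases and neprilysin break them down. Activated CD4 T cells, Th2 cells in particular, are also known to express Penk. GATA3 is the zinc finger factor that directs the Th2 programme, and Bcl11b is a zinc finger factor needed for T cell identity. AP-1, CREB/ATF, NF-kB and NFAT factors have been linked to Penk transcription in neural cells and lymphocytes.

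Penk was one of the most abundant messages in some groups and a minor one in others. Levels are given in RPKM, reads per kilobase of transcript scaled to library size, as deposited. In the Bcl11b experiment Penk stood at 1790 and 1270 RPKM in late KO cells, against 273 and 314 RPKM in late WT cells. In early cells it stood at 182 and 236 RPKM in KO, against 8.40 and 5.77 RPKM in WT. Both KO libraries lay above both WT libraries at each stage, and both late libraries above both early ones in each genotype. In late KO cells Penk ranked 7 and 8 among the 22878 genes by RPKM and took 0.511% and 0.419% of all gene reads, 74443 and 40151 reads.

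The direction was the opposite in the Gata3 experiment. Penk stood at 42.6 and 41.2 RPKM in late KO cells, against 665 and 715 RPKM in late WT cells. In early cells it stood at 6.25 and 3.74 RPKM in KO, against 586 and 757 RPKM in WT. Both KO libraries lay below both WT libraries at each stage, while the late and early WT libraries overlapped. The early KO values rest on 135 and 75 reads, the fewest of any group. Fewer cells that express Penk and less Penk RNA per cell cannot be told apart in these bulk libraries.

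**Figure D1:**
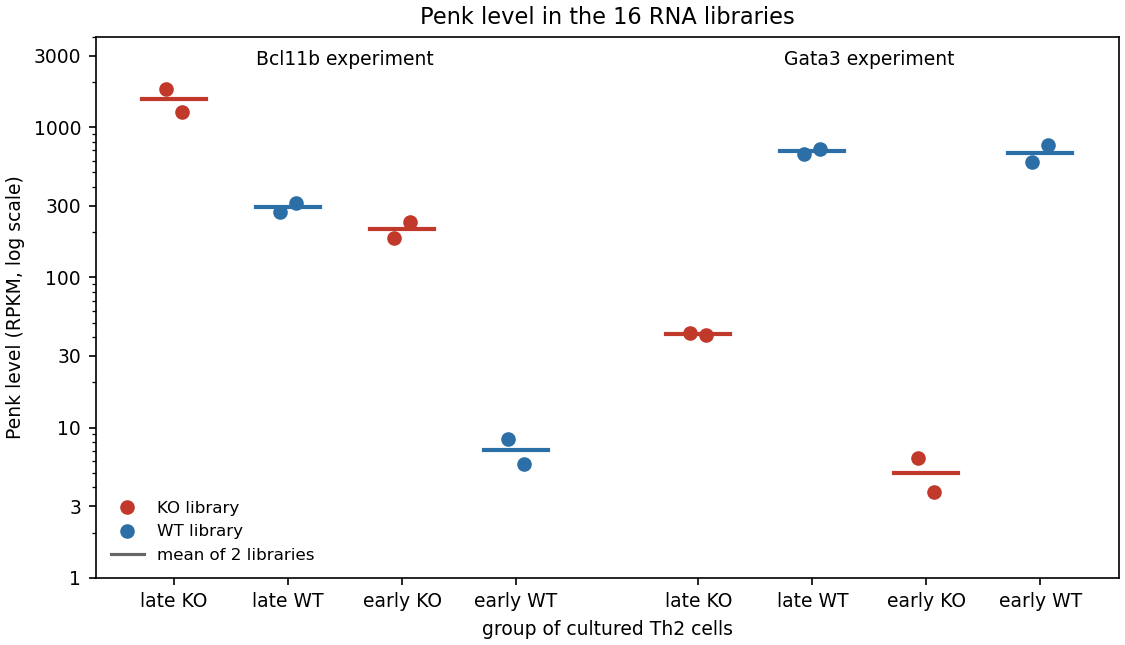
Penk level in RPKM (y axis, log scale) in each of the 16 RNA libraries, by experiment and group (x axis); points are libraries and lines are means of 2. Penk is higher in KO than WT in the Bcl11b experiment and lower in KO than WT in the Gata3 experiment, at both stages.

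Libraries differed in quality in a way that touches one group. Gene reads made up 20.7% and 16.9% of the library total implied by RPKM in the early Bcl11b WT libraries, against 40.7% to 60.3% in the other 14. Over olfactory and vomeronasal receptor transcripts, which T cells should not express, these same libraries held 3.73 and 4.82 reads per kilobase, against at most 0.502 elsewhere. At that rate 5.27 and 6.80 background reads would fall in Penk, 1.85% and 3.01% of its 285 and 226 reads. RPKM divides by a total that includes reads outside genes, so it runs low in these libraries. For Penk the scale of gene reads alone is given as well where they enter. Levels of other genes and the marker sums are mostly in RPKM only, while calls by edgeR rest on gene reads. Gene reads ranged from 4687552 to 14577958 per library. 

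The targeted genes were still read in the KO libraries. In early Bcl11b KO cells Bcl11b had 3.32 and 2.89 RPKM, against 3.17 and 2.78 RPKM in early WT cells, with no gap between the groups. On gene reads alone it averaged 60.3 ± 8.74 CPM (read counts scaled to a common library size) in early KO and 127 ± 1.39 CPM in early WT cells (SD, n = 2 each) and fell (-1.08 ± 0.28, edgeR adjusted p = 0.0232), a call lost without early KO replicate 2 (0.0820) or early WT replicate 1 (0.0519). In late cells it had 4.53 and 7.33 RPKM in KO and 9.21 and 11.3 RPKM in WT, a difference that edgeR did not call (-0.59 ± 0.28, adjusted p = 0.421). Gata3 had 189 and 173 RPKM in late Gata3 KO and 248 and 244 RPKM in late WT cells and fell (-0.41 ± 0.11, edgeR adjusted p = 0.0361), a call lost without late KO replicate 2, either late WT library or either early KO library (0.0683 to 0.157). In early cells it had 79.8 and 80.1 RPKM in KO and 208 and 234 RPKM in WT and fell (-1.54 ± 0.11, edgeR adjusted p = 5.8e-06). The tables give 1 value per transcript, so reads outside the deleted exons, which check no deletion, are in these values.

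To compare groups on gene reads alone, counts were scaled to CPM within each experiment by TMM and fitted with edgeR's quasi-likelihood model. In the late Bcl11b experiment Penk averaged 4777 ± 768 CPM in KO and 813 ± 108 CPM in WT, 5.87-fold higher in KO (log2 fold change 2.55 ± 0.19 SE). In the early cells it averaged 718 ± 95.3 CPM in KO and 53.5 ± 8.72 CPM in WT, 13.4-fold higher in KO (3.74 ± 0.21). The same early comparison came to 29.5-fold on deposited RPKM. Of 10873 genes tested, 142 had a higher log2 fold change than Penk in the late and 73 in the early comparison. The late KO effect minus the early one was -1.19 ± 0.26 on the log2 scale by edgeR and -2.50 by the ratio of mean RPKM.

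Penk was also higher at the late than at the early stage in both genotypes of this experiment. It was 6.65-fold higher in late than in early KO cells (2.73 ± 0.19). It was 15.2-fold higher in late than in early WT cells by CPM (3.93 ± 0.21) and 41.4-fold higher by RPKM. Early KO and late WT cells had nearly the same Penk level by CPM, 718 ± 95.3 and 813 ± 108, with overlapping libraries.

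Under Gata3 deletion Penk averaged 104 ± 5.80 CPM in late KO and 1666 ± 59.0 CPM in late WT cells, 16.1-fold lower in KO (-4.01 ± 0.21). In early cells it averaged 11.6 ± 4.27 CPM in KO and 1639 ± 253 CPM in WT, 141-fold lower in KO (-7.14 ± 0.25). Of 10601 genes tested, 31 had a lower log2 fold change than Penk in the late and 32 in the early comparison. Between stages Penk was 8.94-fold higher in late than in early KO cells (3.15 ± 0.22), while late and early WT cells differed by 0.02 ± 0.18. The late KO effect minus the early one was therefore 3.13 ± 0.28, a smaller deficit at the late stage. Gata3 itself was also nearer to WT at the late stage, with a log2 fold change of -0.41 ± 0.11 in late and -1.54 ± 0.11 in early KO cells; the late minus early effect of 1.14 ± 0.16 passed edgeR's quasi-likelihood test (adjusted p = 0.00148).

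**Figure D2:**
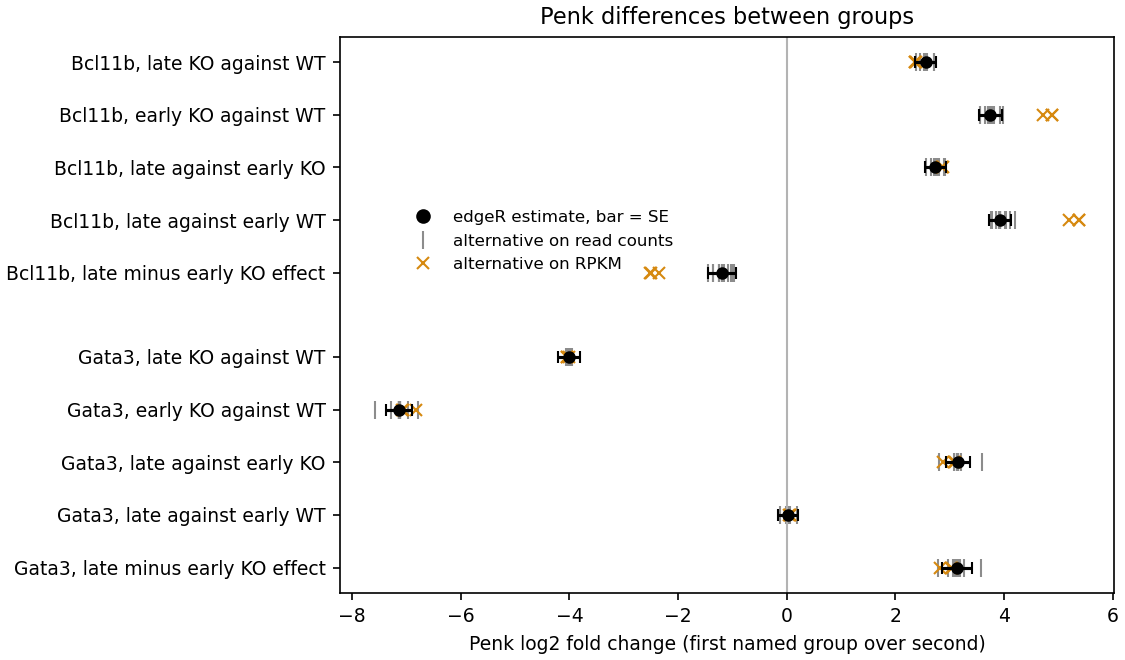
Penk log2 fold change (x axis) for each comparison (y axis); black points are edgeR estimates with SE bars, grey ticks are the alternatives on read counts and orange crosses those on RPKM. The crosses sit apart from the points in the 3 comparisons that use the early Bcl11b WT libraries, and the direction is the same in all but the late against early WT comparison of the Gata3 experiment, which spans 0.

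Ordered by mean RPKM over both experiments, late Bcl11b KO cells came first (1530), followed by late Gata3 WT (690) and early Gata3 WT cells (672), whose libraries overlapped. Late Bcl11b WT (293) and early Bcl11b KO cells (209) came next; they did not overlap in RPKM but did after scaling all 16 libraries by TMM. Late Gata3 KO cells (41.9) stood apart from both neighbours. Early Bcl11b WT (7.08) and early Gata3 KO cells (4.99) overlapped in RPKM but not after TMM scaling. The WT groups of the 2 experiments thus differed from each other, most at the early stage, at 7.08 RPKM in the Bcl11b and 672 RPKM in the Gata3 experiment. After TMM scaling of all 16 libraries these early WT means were 5.81 and 10.66 on the log2 CPM scale, a smaller gap than in RPKM. No test was made across experiments, since experiment, mice and library set cannot be told apart.

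The GATA3 peak assigned to Penk lay downstream of the gene. Penk is on the minus strand of chromosome 4, with the gene at chr4:4133535-4138444 and its start site at 4138444 in the peak table (mm10). The peak covers chr4:4125074-4125499, 426 bases, with its summit at 4125314, and is 13.158 kb by the table's own distance from the start site and 8.036 kb past the 3′ end of the gene, in intergenic sequence. It held 10 tags, with a fold enrichment of 3.87, a score of 168.87 (a log-scaled p-value) and a false discovery rate of 0.09%, all values of the authors' peak caller. By score it ranked 13546 of 28612. The list's medians were 15 tags and a fold of 3.01, and 23.4% of its peaks had fewer tags while 64.3% had a lower fold. By tags and score it was no leading peak of that list.

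The start site of Penk itself lay in no peak. Within 1 kb of it there were 0 Bcl11b, 0 GATA3 and 0 input peaks. Over the whole lists 32.6% of Bcl11b, 10.3% of GATA3 and 33.3% of input peaks lay within 1 kb of a start site. Within 100 kb the single GATA3 peak stood alone, overlapping no Bcl11b or input peak. The nearest Bcl11b summit was 171 kb away, in a peak assigned to Chchd7, and the next was 199 kb away, also assigned to Chchd7. The next GATA3 summit after the Penk peak was 214 kb away. Among genes with any peak in the GATA3 list, 46.4% had 1 peak, as Penk did, and the median was 2. A peak that was not called is not shown to be unbound, with 1 library per antibody.

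**Figure D3:**
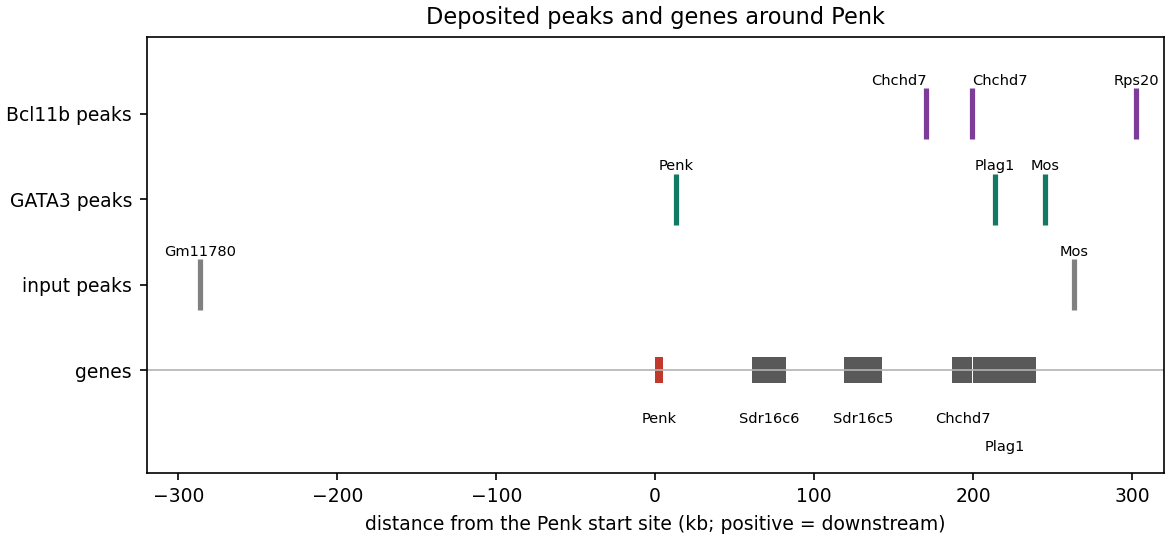
Distance from the Penk start site in kb (x axis, positive is downstream) of the deposited peak summits, with the gene each is assigned to, and of RefSeq genes with RNA values. Rows are the 3 peak lists and the genes. A single GATA3 summit, at 13.13 kb, is nearer than 100 kb, and the nearest Bcl11b summit is at 171 kb.

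Of the genes next to Penk, none of the 3 that could be tested was called in KO against WT cells. Neighbours were taken by RefSeq coordinates (GRCm38.p6) among genes with RNA values, so annotated genes without such values may lie nearer. The 4 nearest below it are Sdr16c6 (56.0 kb away), Sdr16c5 (114 kb), Chchd7 (182 kb) and Plag1 (195 kb). Those above it are Impad1 (624 kb), 4930423M02Rik (1494 kb), Fam110b (1505 kb) and Ubxn2b (2052 kb). No other annotated gene overlaps Penk. The short-chain dehydrogenase genes Sdr16c6 and Sdr16c5 and the noncoding 4930423M02Rik were at or near 0 RPKM in every library. Chchd7, Impad1 and Ubxn2b were tested, with edgeR adjusted p of at least 0.228 in the 4 KO against WT comparisons. Chchd7, a mitochondrial intermembrane space protein gene, had 5.13 and 5.07 RPKM in late Bcl11b KO and 4.76 and 6.55 RPKM in late WT cells. In early Bcl11b cells it had 11.9 and 12.8 RPKM in KO and 5.10 and 4.58 RPKM in WT, a gap not seen on gene reads alone (0.21 ± 0.42). It had 16.6 and 18.8 RPKM in late Gata3 KO and 21.9 and 21.7 RPKM in late WT cells, and 23.8 and 20.6 RPKM in early KO and 20.4 and 20.5 RPKM in early WT cells. Between stages of the Bcl11b experiment Impad1, a phosphatase gene of the Golgi, rose in late against early KO (1.68 ± 0.33, edgeR adjusted p = 0.00287) and WT cells (2.39 ± 0.34, edgeR adjusted p = 0.000385), the direction in which Penk differed. Chchd7 fell in both (edgeR adjusted p = 0.0249 and 0.0383), calls lost in KO without any one late library (at most 0.175) and in WT without any one late or early WT library (0.0539 to 0.243); the WT groups overlapped in RPKM. Fam110b was too low to test, at 0.0656 and 0.211 RPKM in early Gata3 KO and 0.962 and 0.886 RPKM in early WT cells.

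Among the opioid peptide precursors Penk was the one with appreciable reads. Together Penk, Pdyn (prodynorphin), Pomc (pro-opiomelanocortin) and Pnoc (prepronociceptin) had 210131 reads over the 16 libraries, of which Penk held 99.8%. Pdyn had 1 read in all, Pnoc 72 and Pomc 259. Pomc reached at most 2.04 RPKM, in a late Gata3 WT library, and was tested in the Gata3 experiment, where it was not called in KO against WT cells.

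Receptors for the enkephalins were near 0. Oprd1 and Oprm1, the delta and mu opioid receptor genes, reached at most 0.108 and 0.369 RPKM, Oprk1 (kappa) 0.406, Oprl1 (nociceptin receptor) 0.109, and Cxcr7 (now Ackr3, an atypical receptor that binds opioid peptides) 1.08 RPKM. All of these maxima but that of Oprl1 were in an early Bcl11b WT library, the ones with the most reads over silent receptor genes. Ogfr, the opioid growth factor receptor that binds Met-enkephalin and is unrelated to the other receptors, was the exception, with 2.47 to 48.4 RPKM. It stood at 45.7 and 48.4 RPKM in early Gata3 KO and 20.3 and 23.3 RPKM in early WT cells and rose by 1.03 ± 0.16 (edgeR adjusted p = 0.000817), and was not called in the other KO against WT comparisons.

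The other genes of the enkephalin pathway and the listed regulators numbered 57 in the tables, of which 38 passed the filter on low values in the Bcl11b and 37 in the Gata3 experiment. A gene was called at a Benjamini-Hochberg adjusted p under 0.05 over all genes tested. In late Bcl11b KO against WT cells 2 rose and 0 fell, where 1.69% of all genes rose and 0.524% fell. In early Bcl11b KO cells 5 rose and 2 fell, where 11.0% of all genes rose and 10.1% fell; the split there hung on the scale, with 1194 genes rising and 1097 falling by edgeR and 6570 rising and 338 falling by limma on log2(RPKM + 1). In late Gata3 KO cells 5 rose and 6 fell, where 8.44% rose and 5.59% fell. In early Gata3 KO cells 8 rose and 15 fell, where 14.0% rose and 16.8% fell. The median log2 fold change of the listed genes was 0.09 and 0.24 in the late and early Bcl11b and -0.01 and -0.19 in the late and early Gata3 comparison, against -0.02, 0.03, 0.00 and 0.00 over all genes. By stage, 20 of the 38 were called in late against early Bcl11b KO cells (14 higher), where 36.6% of all genes were, and 22 in WT cells (15 higher), where 41.7% were. Of the 37 tested in the Gata3 experiment 16 were called between late and early KO cells (12 higher), where 24.5% of all genes were, and 0 between late and early WT cells. In that last comparison edgeR and DESeq2 called 0 of 10601 genes, with 128 at an unadjusted p under 0.05.

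**Figure D4:**
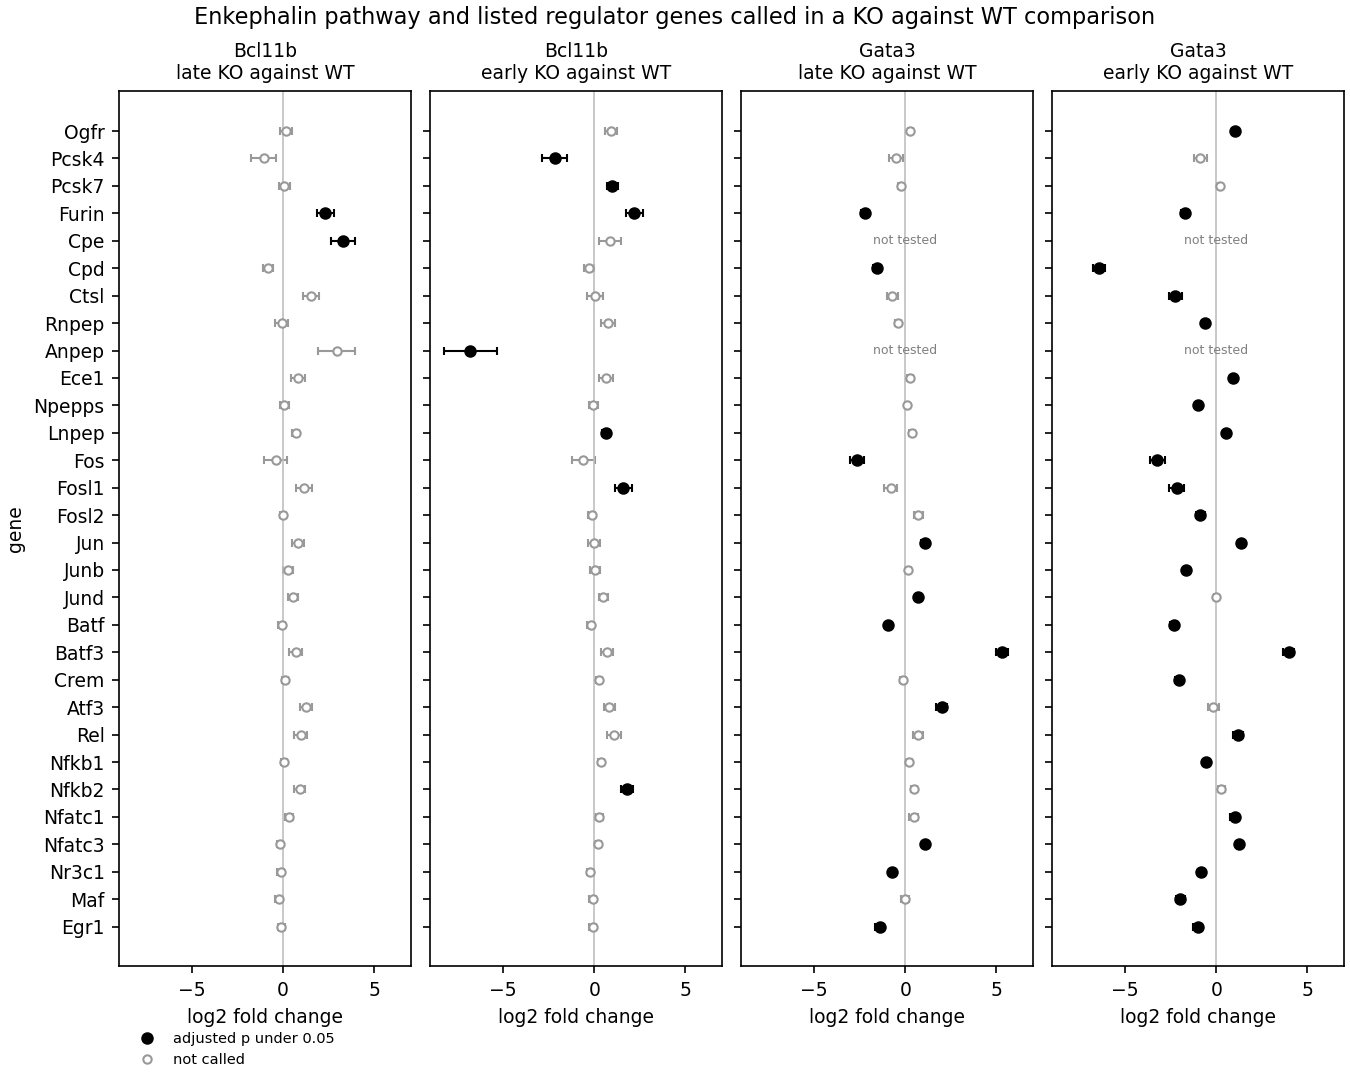
edgeR log2 fold change with SE bars (x axis) of the 30 listed genes called in at least 1 KO against WT comparison (y axis), in the 4 comparisons; filled points are called at an adjusted p under 0.05. Furin is called upwards in both Bcl11b panels and downwards in both Gata3 panels, the directions in which Penk differed.

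Of 14 processing genes, 7 were tested in the Bcl11b experiment. Furin, a proprotein convertase of the secretory pathway, stood at 35.3 and 38.9 RPKM in late Bcl11b KO and 6.79 and 10.0 RPKM in late WT cells, and rose (2.32 ± 0.45, edgeR adjusted p = 0.0279). In early cells it stood at 9.27 and 5.42 RPKM in KO and 0.360 and 1.04 RPKM in WT, and rose (2.21 ± 0.48, edgeR adjusted p = 0.00989). Groups did not overlap at either stage. On background-subtracted counts 0 listed genes were called in late KO against WT cells, so neither Furin nor Cpe was. The late call was lost without any one of the 4 late libraries (adjusted p of 0.147 to 0.273), and the early one without early KO replicate 1 (0.0562). Cpe, the carboxypeptidase that finishes enkephalins in neuroendocrine cells, was the other late call (3.28 ± 0.66, edgeR adjusted p = 0.0325), at 8.37 and 2.60 RPKM in KO and 0.525 and 0.721 RPKM in WT, and was likewise lost without any one late library (0.0600 to 0.324). In early cells the convertase gene Pcsk7 rose (1.00 ± 0.31, edgeR adjusted p = 0.0448) and Pcsk4, known from germ cells, fell (-2.17 ± 0.67, edgeR adjusted p = 0.0440); both calls were lost without any one library other than early KO replicate 1 (0.0578 to 0.142).

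Furin was lower in KO in the Gata3 experiment. It stood at 7.36 and 12.7 RPKM in late KO and 52.8 and 41.8 RPKM in late WT cells, and fell (-2.20 ± 0.22, edgeR adjusted p = 0.000180). It stood at 14.7 and 14.5 RPKM in early KO and 47.6 and 42.5 RPKM in early WT cells, and fell (-1.70 ± 0.21, edgeR adjusted p = 0.000197). These calls held without each library in turn. Cpd, a carboxypeptidase of the trans-Golgi network that trims furin products, fell in late KO cells (-1.54 ± 0.21, edgeR adjusted p = 0.00112), at 1.95 and 2.82 RPKM in KO and 6.47 and 7.87 RPKM in WT. It fell further in early KO cells (-6.45 ± 0.31, edgeR adjusted p = 5.76e-07), where 17 and 7 reads (0.122 and 0.0538 RPKM) were left in KO, against 758 and 1058 reads (6.36 and 8.52 RPKM) in WT. Cpd was not called between KO and WT in the Bcl11b experiment, at 19.1 and 15.8 RPKM in late KO and 39.3 and 30.6 RPKM in late WT cells. Ctsl, a cathepsin implicated in proenkephalin processing, fell in early Gata3 KO cells (-2.25 ± 0.36, edgeR adjusted p = 0.000988), and the aminopeptidase gene Rnpep fell by 0.63 on the log2 scale (edgeR adjusted p = 0.00960), a call lost without early WT replicate 2 (0.0699) or early KO replicate 2 (0.101). The neuroendocrine convertase genes Pcsk1 and Pcsk2 reached at most 0.144 and 0.518 RPKM in any library, and the amidating enzyme gene Pam 1.00 RPKM.

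Of 9 genes of enzymes that can degrade enkephalins, Mme (neprilysin), Mmel1 and Ace were near 0, at most 0.0680, 0.156 and 0.729 RPKM. Dpp3, an enkephalin-degrading dipeptidase, was present at 7.16 to 35.7 RPKM and was not called in any KO against WT comparison. Npepps, the puromycin-sensitive aminopeptidase gene, fell in early Gata3 KO cells (-1.03 ± 0.13, edgeR adjusted p = 0.000171), at 5.85 and 6.27 RPKM in KO and 11.2 and 12.2 RPKM in WT. Ece1, an endothelin-converting metalloprotease gene, rose there (0.90 ± 0.17, edgeR adjusted p = 0.00266). Lnpep, a membrane aminopeptidase gene, rose in the early KO cells of both experiments: by 0.52 ± 0.16 in the Gata3 experiment (edgeR adjusted p = 0.0290), lost without early WT replicate 1 (0.188) or either early KO library (0.136 and 0.0859), and by 0.65 ± 0.20 in the Bcl11b experiment (edgeR adjusted p = 0.0399), lost without early WT replicate 1, early KO replicate 1 or any late library (0.0704 to 0.272). Anpep, aminopeptidase N, had 1 and 0 reads in early Bcl11b KO and 5 and 65 reads in early WT cells; its call there was lost without early WT replicate 2 (edgeR adjusted p = 0.0547). On background-subtracted counts 4 listed genes rose and 2 fell in early Bcl11b KO against WT cells, in place of 5 and 2. The cause of that difference was not tested.

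Of the 14 AP-1 and CREB/ATF factor genes tested in the Gata3 experiment, 4 rose and 2 fell in late KO against WT cells, where 8.44% of all genes rose and 5.59% fell, and 2 rose and 6 fell in early ones, where 14.0% rose and 16.8% fell. By stage, 5 of 14 rose and 3 fell in late against early cells of each genotype in the Bcl11b experiment. There 36.6% of all genes were called in KO and 41.7% in WT cells. In late against early Gata3 KO cells 7 rose and 0 fell by edgeR, where 24.5% of all genes were called, 1513 higher and 1087 lower. Batf, a basic leucine zipper partner of Jun proteins in T helper cells, fell in late KO cells (-0.94 ± 0.18, edgeR adjusted p = 0.00841), a call lost without late KO replicate 2 (0.0510). It also fell in early KO cells (-2.33 ± 0.19, edgeR adjusted p = 1.31e-05), at 84.9 and 77.9 RPKM in KO and 438 and 339 RPKM in WT. Its relative Batf3 went the other way, at 144 and 146 RPKM in late KO and 4.25 and 3.20 RPKM in late WT cells (5.31 ± 0.31, edgeR adjusted p = 1.02e-05). In early cells Batf3 stood at 104 and 59.3 RPKM in KO and 5.61 and 4.24 RPKM in WT (3.98 ± 0.30, edgeR adjusted p = 6.79e-06). Fos fell at both stages, by 2.67 ± 0.39 in late and 3.24 ± 0.41 in early KO cells on the log2 scale (edgeR adjusted p = 0.00174 and 0.000207). Jun rose at both stages, by 1.06 ± 0.19 and 1.38 ± 0.19 (edgeR adjusted p = 0.00561 and 0.000409). Junb fell in early KO cells (-1.64 ± 0.13, edgeR adjusted p = 1.00e-05), as did Crem, the cAMP-response modulator gene (-2.07 ± 0.20, edgeR adjusted p = 3.37e-05); neither was called in late KO cells. Atf3 (1.99 ± 0.30, edgeR adjusted p = 0.00188) and Jund (0.73 ± 0.11, edgeR adjusted p = 0.00261) rose in late KO cells. Between Bcl11b KO and WT 0 of 14 were called in late cells by edgeR, where 241 of all genes were, and Fosl1 was the single call in early ones (1.59 ± 0.46, edgeR adjusted p = 0.0350), lost without early WT replicate 1, early KO replicate 2 or any late library (0.0781 to 0.0960).

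Of the 10 listed NF-kB, NFAT and other factor genes, Nfkb2 was the single call between KO and WT in the Bcl11b experiment, in early cells (1.80 ± 0.31, edgeR adjusted p = 0.00345), at 12.0 and 15.0 RPKM in KO and 2.41 and 1.16 RPKM in WT. In late Gata3 KO cells Nfatc3, a calcineurin-dependent NFAT gene, rose (1.07 ± 0.15, edgeR adjusted p = 0.00156), while Egr1, an immediate early factor gene, fell (-1.41 ± 0.25, edgeR adjusted p = 0.00511) and the glucocorticoid receptor gene Nr3c1 fell by 0.72 ± 0.18 (edgeR adjusted p = 0.0261). The late Nr3c1 call was lost without late KO replicate 2 (0.130) or either late WT library (0.0779 and 0.0958). In early Gata3 KO cells 3 rose and 4 fell, where 14.0% of all genes rose and 16.8% fell. Maf, a factor of type 2 cytokine genes, fell (-1.99 ± 0.24, edgeR adjusted p = 0.000168), at 7.74 and 12.0 RPKM in KO and 40.6 and 33.2 RPKM in WT, and Nfatc3 rose (1.26 ± 0.15, edgeR adjusted p = 0.000171). The other 5 early calls were each lost without at least 1 early library, with adjusted p of at most 0.173: Rel and Nfatc1 without early WT replicate 1 or early KO replicate 2, Egr1 without early WT replicate 2 or early KO replicate 1, Nr3c1 without early KO replicate 1, and Nfkb1 (named although outside the first 6) without early WT replicate 1 or either early KO library.

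The differences between stages in the KO effect were called for 10 of 37 listed genes in the Gata3 experiment, 10 with a higher and 0 with a lower late value by edgeR. Of all genes 12.2% were called in either direction, 820 with a higher and 474 with a lower late value. The split was 11 and 1 by DESeq2, 12 and 3 with the replicate block, and 10 and 3 without late KO replicate 2. Of the 38 in the Bcl11b experiment 1 was called, where 3.24% of all genes were.

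Cell markers were read beside these results. Their sums are in RPKM, which runs low in the early Bcl11b WT libraries. The 7 T cell markers summed to at least 242 RPKM in every library, and none was at 0. In the Bcl11b experiment their sum was 1345 to 1638 RPKM in late KO and 1100 to 1176 RPKM in late WT cells. Cd3g and Cd4 were called higher and 0 lower, where 1.69% of all genes rose. Single markers did not move together: Cd3d was also higher in both late KO libraries, Cd5 and Lck were lower, and Cd3e and Cd28 overlapped. The early sum was 919 to 958 RPKM in KO and 242 to 349 RPKM in WT cells. Of the 7 markers Cd3g, Cd4 and Cd5 were called higher and 0 lower, where 11.0% of all genes rose. In Gata3 KO cells Cd28, Cd4 and Cd5 rose at the late stage, where 8.44% of all genes rose. At the early stage Cd4, Cd5 and Lck rose while Cd28 and Cd3d fell, where 14.0% of all genes rose and 16.8% fell. The Th2 marker list moved with Penk in the Gata3 experiment: it summed to 577 to 595 RPKM in late KO and 1239 to 1289 RPKM in late WT cells, and to 241 to 258 RPKM in early KO and 1213 RPKM in both early WT libraries. Of 8 of these genes tested there, 5 fell and 2 rose (Ccr4 and Il4ra) in late KO cells, where 5.59% of all genes fell and 8.44% rose. In early KO cells 7 fell and 1 rose (Il4ra), where 16.8% of all genes fell and 14.0% rose. Gata3, the targeted gene, is on this list and among the falls at both stages. In the Bcl11b experiment the Th2 list summed to 1875 to 2223 RPKM in late KO and 1396 to 1565 RPKM in late WT cells, with 0 of 9 called by edgeR. Single markers went both ways there. Il4, Il5 and Il13 were higher in both late KO libraries, while the lower ones included Gata3 and Il1rl1. Il1rl1 stood at 77.0 and 78.3 RPKM in late KO and 146 and 137 RPKM in late WT cells. Il4ra, Ccr4 and Ccr8 overlapped. The Th2 list summed to 413 to 434 RPKM in early KO and 124 to 172 RPKM in early WT cells. There 3 of 9 were called higher and 0 lower, where 11.0% of all genes rose and 10.1% fell. Il4, the signature Th2 cytokine gene, stood in late Gata3 KO cells at 92.3 and 155 RPKM, against 178 and 255 RPKM in late WT cells, and was not called there. The other cytokine genes of the list fell in late Gata3 KO cells. Il5 stood at 1.07 and 0.734 RPKM in KO and 164 and 111 RPKM in WT, and Il13 at 2.35 and 2.85 RPKM in KO and 86.4 and 101 RPKM in WT.

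Marker lists of B cells, macrophages and dendritic cells, mast cells and basophils, erythroid cells and neutrophils, stroma and neurons were lower by far. Those of regulatory T cells and, in some groups, type 2 innate lymphoid cells were not, reaching 3468 and 160 RPKM. In the late Bcl11b WT library with 160 RPKM, Il1rl1 alone, which is also on the Th2 list, had 146 RPKM. The innate lymphoid list summed to at most 9.17 RPKM in early Bcl11b cells. The 5 B cell markers summed to 6.21 to 8.37 RPKM in late Bcl11b KO and 1.41 to 1.74 RPKM in late WT cells, with Cd79b called higher, and to 24.8 to 33.8 RPKM in early KO and 8.76 to 14.0 RPKM in early WT cells, with 0 of 3 called by edgeR. In the Gata3 experiment they summed to at most 0.955 RPKM, with Ms4a1 and Pax5 at 0 reads in every group. Cpa3, a mast cell and basophil protease gene, stood at 12.3 and 12.2 RPKM in early Bcl11b KO and 0.143 and 0.397 RPKM in early WT cells, and was called higher, with 4 of the other 5 markers of that list at 0 reads in early KO. Hba-a1, a haemoglobin gene, was called higher there too, and the 5 erythroid and neutrophil markers summed to 7.08 to 7.60 RPKM in early KO and 0.983 to 1.00 RPKM in early WT cells. Arg1, Il1rl1 and Klrg1, which also mark type 2 innate lymphoid cells, fell in Gata3 KO cells at both stages, 3 of 4 tested. Of all genes 5.59% fell there at the late and 16.8% at the early stage. That list of 5 summed to 4.83 to 10.8 RPKM in late KO and 129 to 135 RPKM in late WT cells. In early cells it summed to 2.42 to 2.81 RPKM in KO and 114 to 128 RPKM in WT. Foxp3, the regulatory T cell factor gene, was at 0.734 to 2.54 RPKM in all libraries. The list of 8 it belongs to, most of them also activation genes, summed to 417 to 3468 RPKM. Of 7 tested in the Bcl11b experiment Tnfrsf9 rose in late KO cells, where 1.69% of all genes rose. In early KO cells Il2ra rose and Ctla4 fell, where 11.0% of all genes rose and 10.1% fell. Of 6 tested in the Gata3 experiment 1 fell in late and 6 in early KO cells, where 5.59% and 16.8% of all genes fell. The 5 macrophage and dendritic cell markers summed to 10.2 to 11.6 RPKM in late Bcl11b KO and 4.76 to 6.62 RPKM in late WT cells, with 0 of 4 called by edgeR, and to 3.11 to 10.2 RPKM in the other groups. Emr1 (now Adgre1), a macrophage and eosinophil gene, fell in Gata3 KO cells at both stages, at 0.370 and 0.383 RPKM in late KO and 5.98 and 3.42 RPKM in late WT cells, and at 0 reads in both early KO libraries and 5.13 and 2.27 RPKM in early WT cells. Cd68 rose in late Gata3 KO cells. Stromal and neuron marker lists summed to at most 1.49 and 2.40 RPKM. The part of other cells in the Penk differences was not tested.

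The 6 genes whose log2 CPM followed Penk most closely over the 16 libraries, among 9985 genes kept in both experiments, were Fam46c (Pearson r = 0.949, Spearman rho = 0.841), Pth (0.939 and 0.859), Perp (0.933 and 0.865), Slc17a6 (0.933 and 0.871), Gpr174 (0.933 and 0.812) and 5730469M10Rik (0.919 and 0.888). These are descriptions over 8 groups of 2 libraries that share genotype, stage and experiment, and 1.17% of all genes had an r over 0.8. Pth, the parathyroid hormone gene, stood at 538 and 437 RPKM in late Bcl11b KO and 360 and 398 RPKM in late WT cells, and at 83.7 and 74.7 RPKM in early KO and 0.232 and 2.56 RPKM in early WT cells. Across the Gata3 libraries Pth stood at 8.98 and 2.89 RPKM in late KO and 163 and 134 RPKM in late WT cells, and at 1.19 and 0.687 RPKM in early KO and 188 and 154 RPKM in early WT cells. Slc17a6, a vesicular glutamate transporter gene, stood at 32.0 and 31.7 RPKM in late Bcl11b KO and 27.7 and 29.7 RPKM in late WT cells, where Penk differed by 5.87-fold. Fam46c, a gene of a noncanonical poly(A) polymerase, spanned a narrower range, from 2.44 RPKM in an early Bcl11b WT library to 28.7 RPKM in an early Gata3 WT library. Perp, a desmosome protein gene, and Gpr174, a lysophosphatidylserine receptor gene, had their lowest levels in the early Bcl11b WT libraries and in early Gata3 KO cells, as Penk did.

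**Figure D5:**
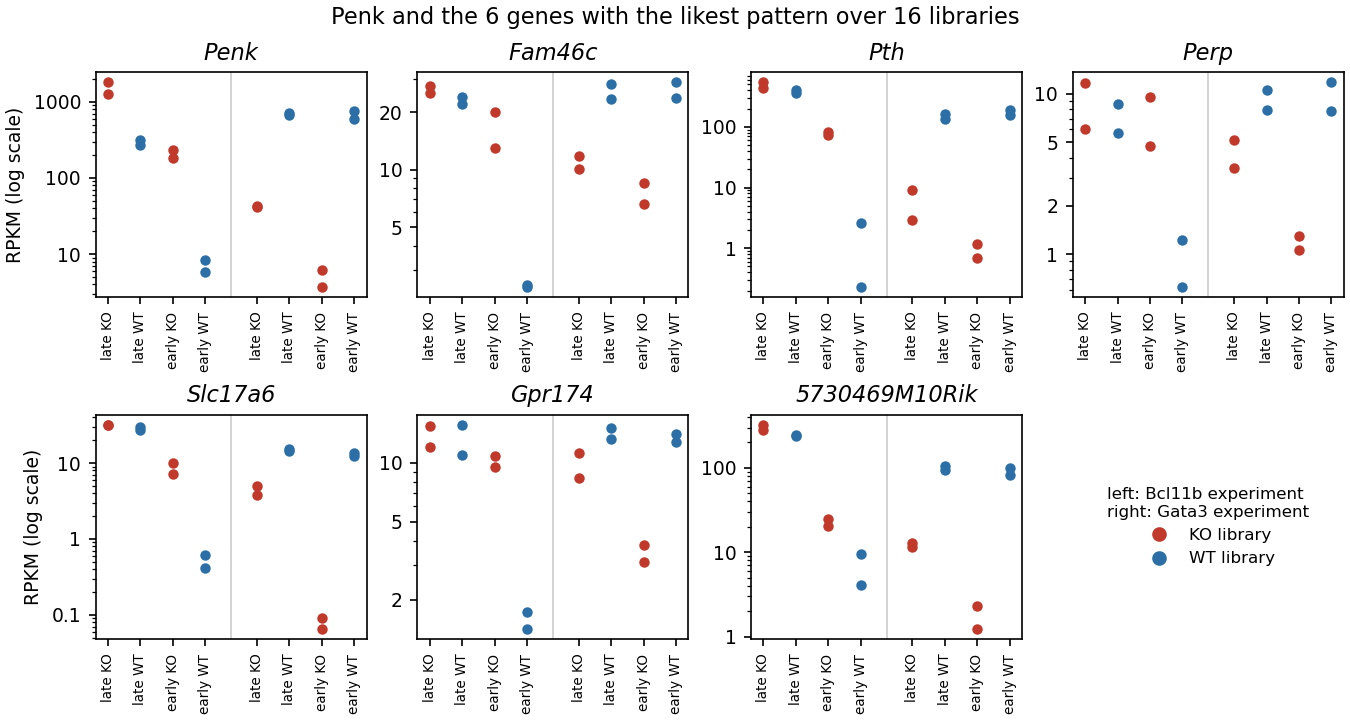
RPKM (y axes, log scale) of Penk and the 6 genes most correlated with it, in each library by group (x axes; left of the grey line the Bcl11b, right of it the Gata3 experiment); points are libraries. In RPKM, which runs low in the early Bcl11b WT libraries, all 7 genes are low in early Bcl11b WT and early Gata3 KO cells. On gene reads 5730469M10Rik averaged 55.4 CPM in early Bcl11b WT and 84.4 CPM in early KO cells, a difference edgeR did not call. The late KO to WT gap of Penk in the Bcl11b experiment is wider than that of the others.

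The list of likest genes depended on the libraries used. With Spearman's rho in place of r, 0 of the 6 stayed among the first 6, which were then Tspan13, Col18a1, Sdc1, Dstn, Itm2a and Il10. Without the early Bcl11b WT libraries 2 of 6 stayed (Pth and Fam46c), with the 8 Gata3 libraries alone 1 (5730469M10Rik, r = 0.998, behind Cyp11a1, the first enzyme of steroid synthesis, also 0.998), with the 8 Bcl11b libraries alone 0, and without all early libraries 0.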

How the data were processed

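Per the labels' protocols, cDNA was made from 10 ng of RNA per library with a NuGEN Ovation kit. Tools listed in the submitters' processing notes, with no role, are MACS 1.4.2, TopHat2 2.0.13, Novoalign, Bowtie and CASAVA 2.18, with build mm10. Sources used here give neither the counting tool nor the strand. The authors deposited raw read counts and RPKM per RefSeq transcript, and peak lists with tag counts, fold enrichment (a ratio), a score from the caller's p-value and a false discovery rate in percent, per the file headers. The transcript with most reads stood for each symbol. Genes with RPKM of at least 1 in 2 of 8 libraries were fitted with edgeR 4.0.16 (R 4.3.3; TMM, 4 groups per experiment, quasi-likelihood test, Benjamini-Hochberg); CPM are TMM-scaled. The fit was tested on simulated data. Alternatives included DESeq2 1.42.0 and limma 3.58.1, the last on log2 RPKM with a pseudocount of 1 or 0.1. The Gata3 experiment had a common biological coefficient of variation of 0.125, the Bcl11b one of 0.281. Penk and the lists were chosen with earlier results of these data known. Named genes are the called members of each list (first the 6 with the smallest p), the 6 most correlated genes and the 4 nearest genes with RNA values on each side. Their places are RefSeq coordinates, since the RNA tables hold none. Genes with listed older symbols were matched through RefSeq synonyms. No sequence of Penk was used here. One marker gene is not reported here by name.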

Additional observations from a re-analysis of the deposited data

Results flagged for a closer look

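The following genes of the enkephalin pathway and its listed regulators were picked out because their KO effect differed between the late and the early stage by edgeR's test of the difference itself. Values are the late minus the early log2 KO effect, with Benjamini-Hochberg adjusted p over all genes. In the Gata3 experiment Cpd differed by 4.91 ± 0.39 (edgeR adjusted p = 9.01e-05), with KO effects of -1.54 at the late and -6.45 at the early stage. Npepps differed by 1.11 ± 0.18 (edgeR adjusted p = 0.00324), with 0.08 at the late and -1.03 at the early stage. Among factor genes, Junb differed by 1.81 (0.17 late, -1.64 early), Batf by 1.39 (-0.94 late, -2.33 early), Crem by 1.95 (-0.12 late, -2.07 early), Atf3 by 2.15 (1.99 late, -0.16 early) and Maf by 1.97 (-0.01 late, -1.99 early), with edgeR adjusted p of 0.000257, 0.00774, 0.00166, 0.0117 and 0.00449.

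Fosl2 differed by 1.59 (0.72 late, -0.87 early; edgeR adjusted p = 0.0209), Jund by 0.75 (0.73 late, -0.02 early; 0.0150) and Nfkb1 by 0.80 (0.22 late, -0.58 early; 0.0485). These calls were lost without 4, 4 and 6 of the 8 libraries, left out one at a time, with adjusted p of at most 0.105, 0.0740 and 0.191. In the Bcl11b experiment Anpep differed by a fitted 9.75 (edgeR adjusted p = 0.0226), a value that depends on the prior count: it had 130 and 96 reads in late KO, 12 and 23 in late WT, 1 and 0 in early KO and 5 and 65 in early WT libraries. That call was lost without any one of the 4 late libraries. It was also lost on background-subtracted counts, where 0 listed genes were called for the stage difference.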

How the results depend on the processing

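Penk kept its direction in all KO against WT comparisons and both late against early comparisons of the Bcl11b experiment under every alternative run. It moved by more than the spread between libraries most often where the early Bcl11b WT libraries enter. The early KO log2 fold change there was 4.71 by limma on log2(RPKM + 1), 4.88 with + 0.1, 4.88 by the ratio of mean RPKM (added after seeing the data) and 3.98 with no filter. Late against early WT cells gave 5.20, 5.37, 5.37 and 4.20 in that order, and the stage difference -2.34, -2.51, -2.50 and -1.45. RPKM shifted the median of all genes by 0.86 and 1.14 (+ 1, + 0.1) in early KO against WT and by 1.04 and 1.43 in late against early WT. In the Gata3 experiment Penk moved so under 1 alternative for early KO against WT, 1 for late against early KO and 1 for late against early WT. The Gata3 stage difference moved under 3, among them 2.82 with + 1.

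Leaving out 1 library at a time, the Bcl11b log2 fold changes of Penk spanned 3.55 to 3.92 (early), 2.38 to 2.71 (late), 2.56 to 2.91 (late against early KO), 3.76 to 4.10 (WT) and -1.37 to -0.98 (stage difference). The Gata3 ones spanned -7.57 to -6.79, -4.07 to -3.95, 2.81 to 3.59, -0.12 to 0.19 and 2.79 to 3.57 in that order.

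Genes called varied more. Early Bcl11b KO against WT gave 2291 by edgeR, 6908 and 6822 by limma (+ 1, + 0.1), 3596 unfiltered, 1016 with the 4 libraries alone, 4126 with all 16 and 1564 to 2526 leaving one out. Late gave 241, against 587 by DESeq2, 60 by limma (+ 0.1), 146 unfiltered, 1582 with 4 libraries, 716 with 16, 152 on background-subtracted counts and 20 to 477. Late against early KO gave 1969 to 4791 leaving one out. Late against early WT gave 4529, against 7786 and 7722 by limma, 7114 unfiltered and 2477 to 5095. The stage difference gave 352, against 902 by DESeq2, 6087 and 5623 by limma, 529 unfiltered, 1536 with 16 libraries, 206 with the replicate block and 40 to 721. In the Gata3 experiment early gave 3257, against 2032 with 16 libraries and 2099 to 3446. Late gave 1488, against 2269 unfiltered, 686 with 16 libraries, 2510 with the block and 818 to 1481. Late against early KO gave 2600, against 1296 with 16 and 1362 to 2557. Late against early WT gave 0, with 1 by limma (+ 0.1) and 0 to 0. The stage difference gave 1294, against 2076 unfiltered, 613 with 16, 2387 with the block and 694 to 1431.

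Listed genes called in early Bcl11b cells were 7, against 34 and 33 by limma, 16 unfiltered, 3 with 4 libraries, 13 with 16, 4 with the block and 3 to 7. In late cells they were 2, against 5 by DESeq2, 1 and 0 by limma, 1 unfiltered, 12 with 4 libraries, 5 with 16, 1 with the block, 0 on background-subtracted counts and 0 to 6. In late Gata3 cells they were 11, against 17 unfiltered, 18 with the block and 10 to 14, and in early ones 17 to 23. The cause was not tested.

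The replicate numbers are only 2 per group and no label ties them to shared animals or days; deviations of same-numbered libraries correlated by -0.066 to 0.283 in the Bcl11b and 0.140 to 0.551 in the Gata3 experiment. With the replicate block, Penk gave 3.75, 2.55, 2.73, 3.93 and -1.19 in the Bcl11b and -7.14, -4.01, 3.15, 0.02 and 3.13 in the Gata3 experiment. The ChIP lists have 1 library each, so no peak has a replicate check.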
